A study of Mus musculus with 104 samples.

Results

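The clustered protocadherin locus was followed as tiles of 1 kb on mouse chromosome 18, between 37.05 and 38.02 Mb of the mm9 build, the window that holds the Pcdha, Pcdhb and Pcdhg genes. CpG methylation was measured in 3 pools of embryonic tissue: Kmt2b-/- heads at E8.5 (KO heads, 2 samples), WT heads at E8.5 (2 samples) and Kmt2b-/- epiblasts at E6.5 (KO epiblasts, 3 samples). Of the 954 tiles of the window with a CpG, the 313 with at least 10 reads in each pool were kept, among 710364 such tiles in the whole genome. Position and read number chose them, and methylation played no part. The 641 tiles left out had a median of 5 CpGs, against 20 in the tiles kept, and 25 of them missed the minimum by 1 read, while 21 of the tiles kept stood exactly at it.

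Clustered protocadherins are cell-surface adhesion proteins whose combinations give neurons individual identities. In Pcdha and Pcdhg, each variable exon has its own promoter and is spliced to constant exons shared by the cluster, whereas each Pcdhb gene is a single coding exon, and the genes of all 3 clusters are transcribed in the same direction. The promoters and variable exons are rich in CpGs, CTCF and cohesin bring a chosen promoter to distant enhancers in neurons, and methylation of the promoters goes with their silence, with DNMT3B known as a methyltransferase that acts on them in the early embryo. Kmt2b, the gene missing from the mutants, encodes a methyltransferase for lysine 4 of histone H3.

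Kmt2b loss was studied in epiblasts and heads by RNA and methylation sequencing, and Tet1-/-;Tet2-/- embryos (Tet1/2 DKO), which lack a pair of enzymes that oxidise methylated cytosine, were sequenced for RNA. The series text names crosses of DBA2 males with C57BL/6N females; the background of the mutant lines is not given in the sources used here. Heads were cut near the neck and hold many cell types. The authors merged the samples of a group into 1 methylation file, so each group is 1 pool, its intervals cover counting error alone, and a test compares the reads of 2 pools and not the conditions. A WT epiblast was not analysed here for methylation. RNA came from a Kmt2b set, with 1 merged column each for Kmt2b KO heads (2 samples) and WT heads (3) at E8.5 and for KO and WT epiblasts (3 each) at E6.5. That set also holds a merged column of WT heads at E9.5 (3 samples), which enters no comparison. RNA also came from a Tet1/2 set of single libraries, with mutants of the DNA demethylases Tet1 and Tet2 (Tet1/2 DKO). It held 2 DKO and 2 WT heads at E8.5, and 2 DKO and 3 WT epiblasts at E6.5. The labels name no WT epiblast of the Tet1/2 line, so these 3 were taken as the WT epiblasts of the Kmt2b set. Genotype and sample set therefore cannot be told apart in the epiblast comparison of the Tet1/2 set.

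The KO head pool held 42047812 reads over all CpGs of the genome, the WT head pool 45262929 and the KO epiblast pool 29138288. Inside the window the mean depth was 2.05, 2.14 and 1.41 reads per CpG in that order, too thin for single CpGs, so reads were summed. A tile kept had a median of 41 reads in KO heads, 47 in WT heads and 29 in KO epiblasts. Tile levels on the 2 strands were alike in each pool, with r of 0.854 over 205 tiles in KO heads, 0.842 over 218 in WT heads and 0.819 over 154 in KO epiblasts, which share library and depth.

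The locus as a whole was less methylated than the rest of the genome, with KO heads the highest of the 3 pools. Over all reads of the 313 tiles, 51.7% of CpG calls were methylated in KO heads (Wilson 95% interval 51.0 to 52.4), 47.5% in WT heads (46.8 to 48.2) and 43.9% in KO epiblasts (43.0 to 44.7). The tiles of the rest of the genome stood at 61.8%, 62.3% and 64.1% in the same order. Single tiles of the window ran from 0 to 100%, with a median of 62.1% and quartiles of 38.5% and 79.2% in KO heads, a median of 59.0% and quartiles of 32.3% and 76.2% in WT heads, and a median of 54.8% and quartiles of 27.1% and 75% in KO epiblasts. The window was rich in CpG-dense tiles, those of at least 20 CpGs, which made up 164 of its 313 tiles (52.4%), against 16.9% of the tiles elsewhere.

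CpG count sorted the tiles. In the 56 densest tiles of the window, those of 40 or more CpGs, 45.5% of calls were methylated in KO heads, 39.5% in WT heads and 34.7% in KO epiblasts. Elsewhere in the genome, tiles of that density are mostly CpG islands and stood at 9.34%, 8.61% and 13.3% in the same order. The 108 tiles of 20 to 39 CpGs were at 53.2%, 47.7% and 42.5%, below the 67.9%, 68.3% and 67.5% of such tiles elsewhere. Tiles of 10 to 19 CpGs (117 in the window) were at 63.4%, 64.1% and 58.0%, and the 32 tiles of 5 to 9 CpGs at 63.4%, 68.1% and 68.6%. Tiles of 20 or more CpGs stood below sparser ones in each pool, inside the window and outside, but the step down at the densest tiles was smaller inside. No window tile with fewer than 5 CpGs reached the read minimum.

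**Figure D1:**
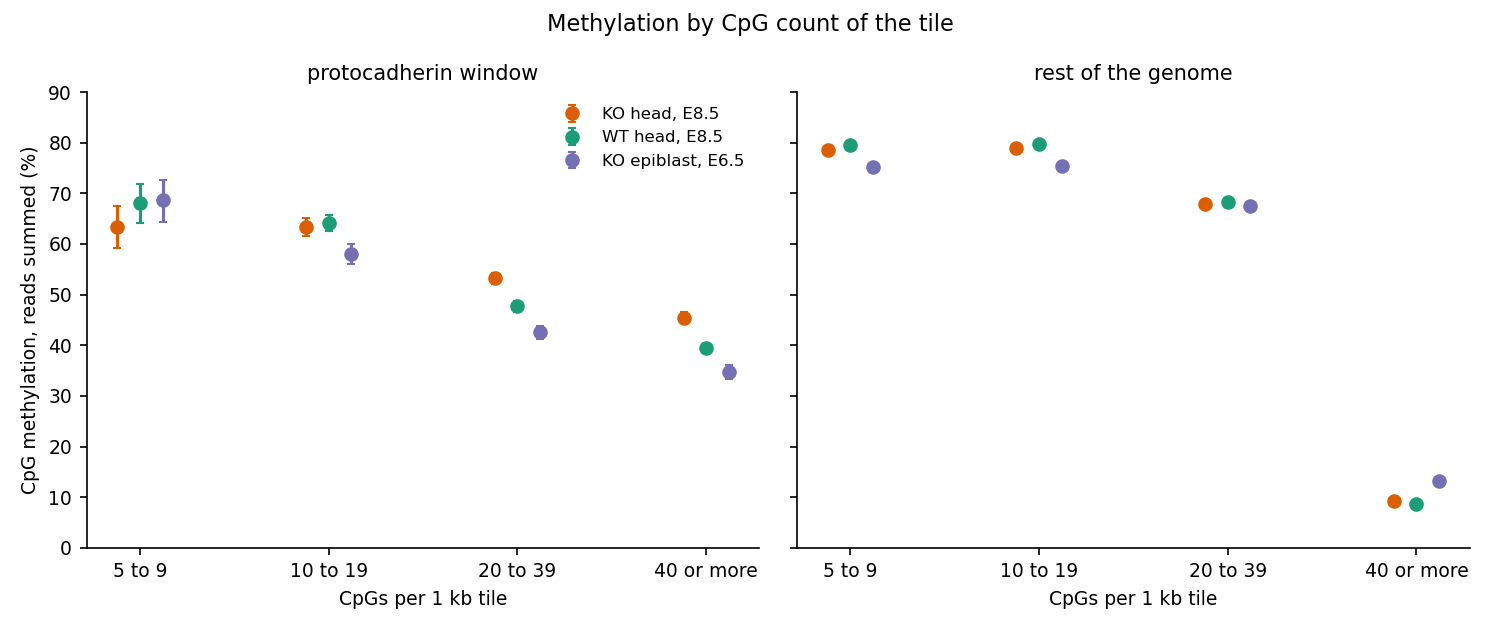
CpG methylation (percent, reads summed) on the vertical axis against the number of CpGs per 1 kb tile on the horizontal axis, in the protocadherin window (left) and in the rest of the genome (right), with Wilson 95% intervals. Tiles of 40 or more CpGs stand between 34.7% and 45.5% in the window and between 8.61% and 13.3% elsewhere, and in the window the order at this density is KO head, WT head, KO epiblast from high to low.

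The densest tiles of the locus mostly took middle values where tiles as dense elsewhere mostly took extreme ones. Of the 56 tiles with 40 or more CpGs, 69.6% lay between 20% and 80% methylation in KO heads, 75% in WT heads and 60.7% in KO epiblasts. The shares elsewhere were 6.67%, 6.48% and 13.5%. The contrast was weaker in tiles of 20 to 39 CpGs. There the shares were 58.3%, 67.6% and 57.4% in the window and 31.9%, 29.1% and 44.6% elsewhere, in the same order of pools. Single cytosines of dense tiles also took middle values more often in the window than elsewhere, though not in most cases in KO epiblasts. Of those with at least 5 reads, 51.4% in KO heads, 50.3% in WT heads and 38.0% in KO epiblasts lay between 20% and 80%. The shares elsewhere were 17.0%, 16.2% and 26.9%. In KO epiblasts 44.7% of those in the window were under 20%. Among CpGs of dense tiles with at least 5 reads, both methylated and unmethylated reads covered 64.8% of 1072 CpGs of the window in KO heads, 64.2% of 1102 in WT heads and 47.9% of 284 in KO epiblasts, against 26.1%, 25.3% and 35.5% of CpGs elsewhere. The median depth of these CpGs was 6 reads in either head pool and 5 in KO epiblasts, inside and outside the window. Reads of different cells and of both parental chromosomes are mixed in each pool, and these could not be separated.

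Dense tiles form short blocks, runs of neighbouring tiles that each hold 20 or more CpGs. The window had 79 blocks with enough reads, of 1 to 4 tiles. For orientation the window was divided at 320 and 740 kb from its start, approximately where Pcdha gives way to Pcdhb and Pcdhb to Pcdhg; these limits come from the known gene order and not from an mm9 annotation, so no block is assigned to a gene. The first segment had 19 blocks with a median of 114 CpGs, spaced a median of 7.5 kb apart. The middle segment had 32 smaller blocks, with a median of 42 CpGs and a spacing of 10 kb. The last segment had 28 blocks with a median of 87.5 CpGs, 6 kb apart.

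Methylation followed these segments in all 3 pools. Dense tiles of the middle segment were the highest, at 66.5% in KO heads, 58.9% in WT heads and 60.9% in KO epiblasts (49 tiles). Those of the first segment were at 56.9%, 49.4% and 47.3% in the same order (43 tiles), and those of the last at 33.5%, 28.7% and 23.4% (72 tiles). By block, the medians were 70.4%, 60.4% and 65.9% in the middle segment, 62.7%, 53.0% and 45.7% in the first, and 33.3%, 28.6% and 18.5% in the last. Tiles with fewer than 20 CpGs were at 60.6%, 63.5% and 68.8% in the first segment, 66.7%, 66.0% and 58.8% in the middle and 61.9%, 64.1% and 55.3% in the last.

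**Figure D2:**
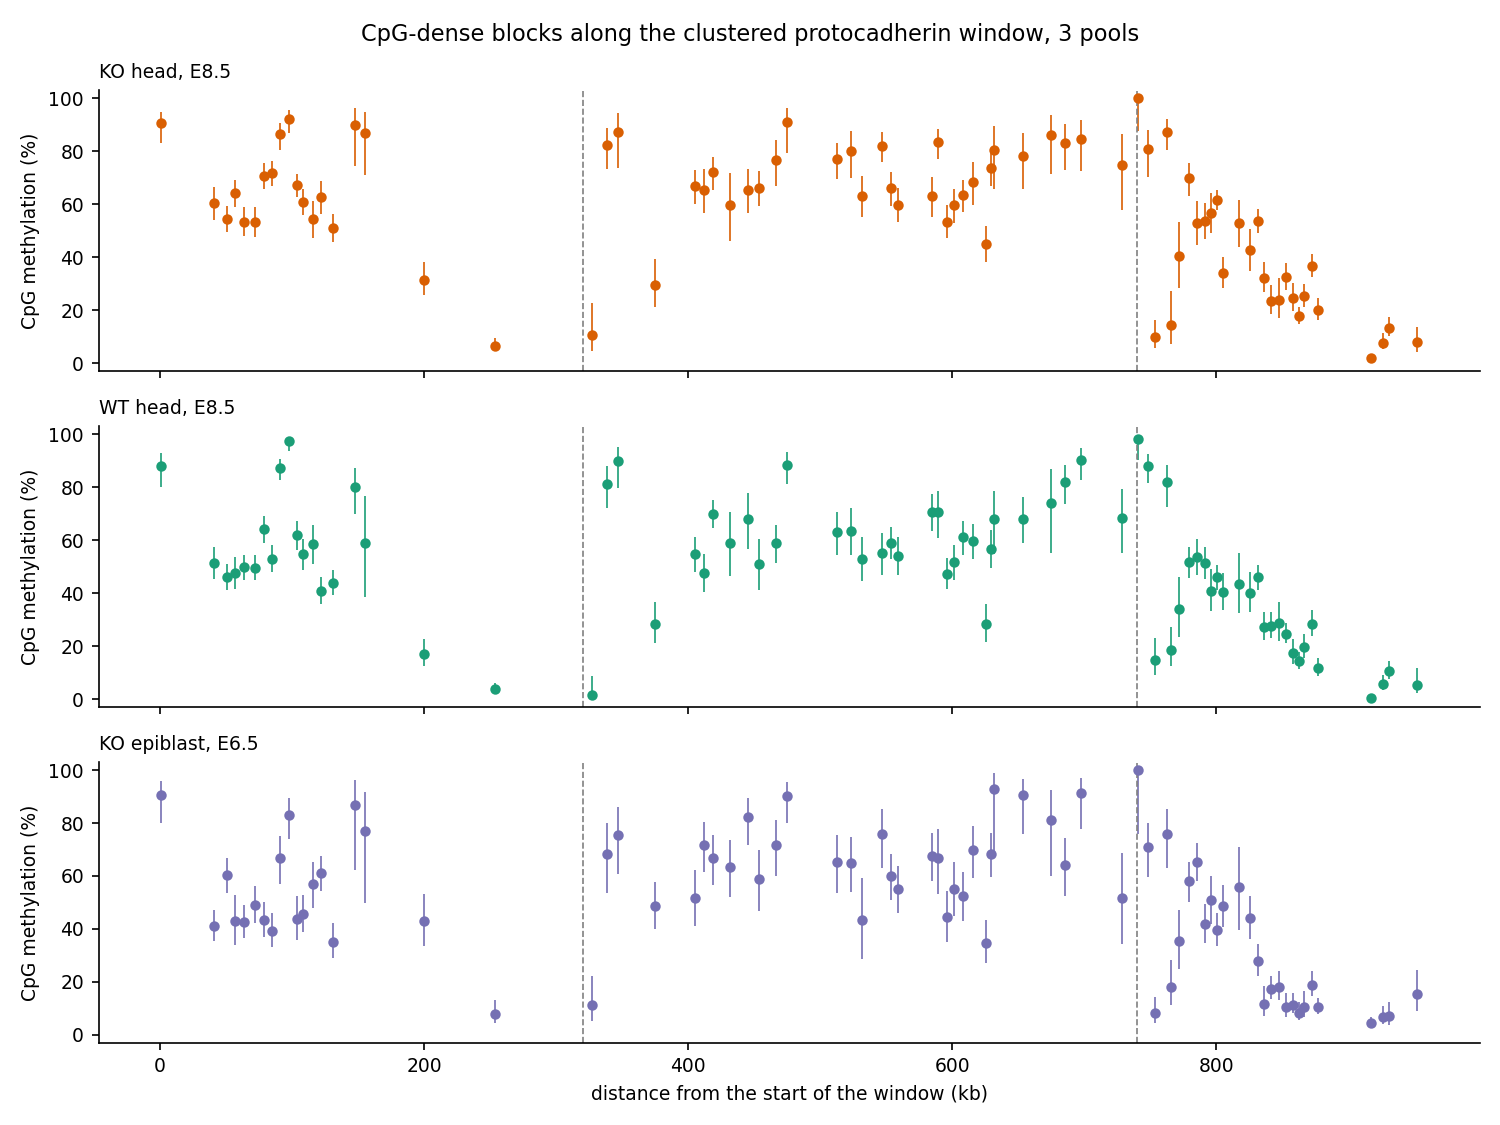
CpG methylation (percent) of the 79 CpG-dense blocks against distance from the start of the window (kb), with 1 panel each for KO heads, WT heads and KO epiblasts, Wilson 95% intervals as bars and dashed lines at 320 and 740 kb. The panels share their outline: middle values over most of the first 2 segments, lower values from 835 kb on, and low blocks at 253, 327, 753 and 915 kb.

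The last segment held a higher and a lower stretch. Blocks at 778 to 799 kb stood between 52.9% and 69.8% in KO heads, between 41.0% and 53.7% in WT heads and between 39.7% and 65.5% in KO epiblasts. The longest run of neighbouring blocks under 20% in KO epiblasts, which those values define, came after them and held the last 13 blocks, from 835 to 951 kb. Summed over these blocks, 20.4% of calls were methylated in KO heads, 16.3% in WT heads and 11.1% in KO epiblasts, and no block passed 36.9% in KO heads or 28.8% in WT heads.

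A small set of blocks was low in methylation. In 9 of 79 blocks every pool was under 20%, at 253, 327, 753, 765, 861, 915, 924, 929 and 951 kb. The block at 915 kb (chr18:37965000-37968999, 190 CpGs) had 2.06% in KO heads (534 reads), 0.517% in WT heads (580 reads) and 4.46% in KO epiblasts (426 reads). The block at 253 kb (chr18:37303000-37304999, 121 CpGs) had 6.67%, 3.78% and 7.75% in that order. At the other end, 5 blocks were over 80% in every pool, and 41 lay between 20% and 80% in every pool.

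Within blocks, methylation climbed in the order of position. Over the 52 blocks of at least 2 tiles, the first tiles held 33.7% in KO heads, 30.8% in WT heads and 29.1% in KO epiblasts, and the last tiles 56.4%, 49.2% and 46.1%. Inner tiles lay between, at 46.8%, 39.8% and 32.3%. CpG counts did not follow that climb, with medians of 32, 39 and 33 for first, inner and last tiles. In the 48 blocks whose end tiles both had 10 reads in each pool, the last tile was above the first in 36 blocks in KO heads (median difference 21.8 points), in 39 in WT heads (20.2 points) and in 36 in KO epiblasts (19.4 points). In 22328 blocks elsewhere, where gene direction is mixed, the median difference was 0 in each pool. The pattern was looked for after its values had been seen and is given with no test.

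**Figure D3:**
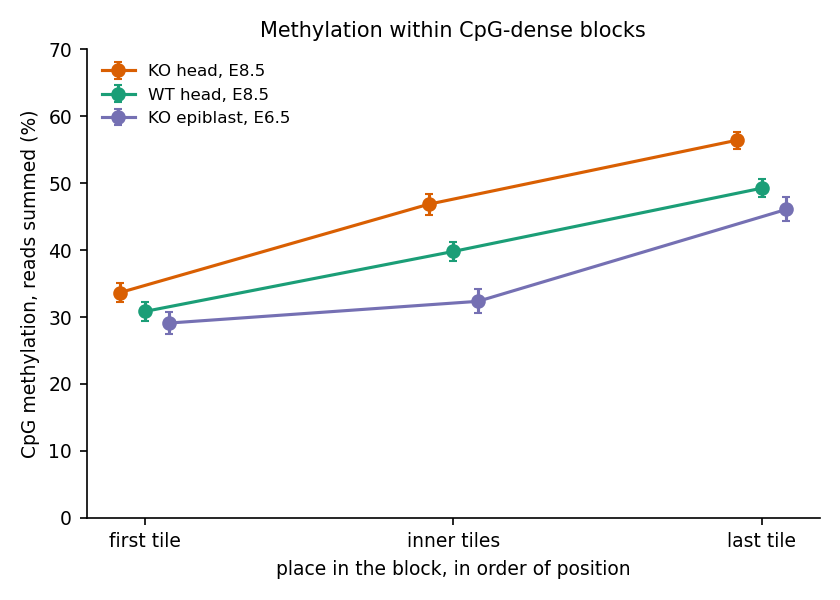
CpG methylation (percent, reads summed, Wilson 95% intervals) of the first, inner and last tiles of the 52 dense blocks of at least 2 tiles, in order of position along the chromosome, for KO heads, WT heads and KO epiblasts. Each pool rises from first to last tile, and KO heads lie above WT heads at every place, by 2.83 points in first tiles and 7.17 points in last tiles.

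The genotype comparison, KO heads against WT heads, addresses what loss of Kmt2b leaves behind in the embryonic head. KO heads had more methylation at the locus, and the excess lay in its dense tiles. Over the 313 tiles the level was 51.7% in KO heads and 47.5% in WT heads, a difference of 4.22 points (Newcombe 95% interval 3.24 to 5.20), with 193 tiles higher, 116 lower and 4 equal. In the 164 dense tiles it was 49.1% in KO heads and 43.4% in WT heads, 5.70 points apart (4.61 to 6.78), with 119 tiles higher and 45 lower. The 149 tiles with fewer CpGs had 63.4% in KO heads and 64.6% in WT heads, a difference of -1.29 points whose interval, -3.45 to 0.88, includes 0.

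Dense tiles of the rest of the genome showed no such excess. They had 39.7% in KO heads and 39.8% in WT heads, a difference of -0.12 points over summed reads and of 0.22 as a median over tiles. KO heads were higher in 72.6% of the window's dense tiles, against 51.7% of dense tiles elsewhere. Set against those, the difference of the window's dense tiles was 5.82 points larger (4.73 to 6.91, counting error only). In tiles of 40 or more CpGs the window differed by 6.00 points (4.52 to 7.48) and the rest of the genome by 0.73, so that the window's difference was 5.28 points larger (3.79 to 6.75). In tiles of 20 to 39 CpGs it was 5.95 points larger (4.36 to 7.54), and in tiles of 10 to 19 CpGs 0.11 points larger, with an interval from -2.23 to 2.45. The densest tiles elsewhere, of 40 or more CpGs, also leaned towards KO heads, with 13537 higher and 8580 lower. In the window 45 of these were higher and 11 lower. Tiles elsewhere with a like middle level of methylation were not compared.

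All 3 segments shared the excess in dense tiles. It was 7.57 points in the first segment (5.61 to 9.52; 56.9% in KO heads and 49.4% in WT heads), 7.62 in the middle (5.57 to 9.66; 66.5% and 58.9%) and 4.76 in the last (3.22 to 6.30; 33.5% and 28.7%). By block, KO heads were higher in 16 of 19, 28 of 32 and 21 of 28, which makes 65 of 79 in all (82.3%), against 50.9% of blocks elsewhere. The median block difference was 6.40 points in the window and 0.14 elsewhere. Among 10 equal windows of 97 kb, with tiles of every density, the difference ran from -3.82 points at 291 to 388 kb to 11 at 485 to 582 kb, and was below 0 in one more, -3.40 at 679 to 776 kb. Within blocks the excess was 2.83 points in first tiles (0.85 to 4.80), 7.05 in inner tiles (4.90 to 9.20) and 7.17 in last tiles (5.32 to 9.02).

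Single tiles that stood out were few. At least 20 points separated the pools in 53 tiles: 34 were higher in KO heads (10.9%, against 6.1% of all tiles) and 19 were lower (6.07%, against 7.22%). Among dense tiles alone, 18 of 164 were higher (10.98%, against 2.94% of dense tiles elsewhere) and 1 was lower (0.61%, against 2.54%). Fisher's exact test on reads, adjusted over all 710364 tiles by Benjamini-Hochberg, called 6 tiles higher in KO heads (1.92%, against 0.221% of all tiles) and 0 lower (0.153% of all tiles). All 6 were dense tiles, 3.66% of those in the window, against 0.946% of dense tiles elsewhere called higher and 0.400% called lower. At an unadjusted p under 0.05 there were 40 higher (12.8% of the 313, against 4% of all tiles) and 11 lower (3.51%, against 4.56%). Of the blocks, 3 of 79 were at least 20 points higher in KO heads (3.8%, against 2.46% of all blocks) and 0 were that much lower (2.34% of all blocks).

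Among the 188 tiles with at least 20 reads in each pool, the one that differed the most lay at 120 kb (chr18:37170000-37170999, 41 CpGs). It had 34 methylated of 58 reads in KO heads (58.6%), 6 of 92 in WT heads (6.52%) and 16 of 48 in KO epiblasts (33.3%). Between the heads that is 52.1 points (37.5 to 64.4), with an adjusted p of 1.89e-08 by Fisher's exact test. At 56 kb (chr18:37106000-37106999, 30 CpGs) 36 of 55 reads were methylated in KO heads (65.5%), 15 of 58 in WT heads (25.9%) and 9 of 33 in KO epiblasts (27.3%), with an adjusted p of 0.0149 between the heads by the same test. At 547 kb (chr18:37597000-37597999, 33 CpGs) the counts were 85 of 105 in KO heads (81.0%), 50 of 101 in WT heads (49.5%) and 13 of 20 in KO epiblasts (65%), with an adjusted p of 0.00229 for the heads by the same test. Each of the 6 tiles that passed had 20 or more CpGs, and the other 3 lay at 84, 85 and 801 kb. The tile at 801 kb (61 CpGs) was the deepest of them, with 285 methylated of 446 reads in KO heads (63.9%), 106 of 256 in WT heads (41.4%) and 43 of 96 in KO epiblasts (44.8%). The tiles at 404 and 375 kb were 32.7 and 31.5 points higher in KO heads and did not pass (adjusted p 0.121 and 0.470, Fisher's exact test).

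In the other direction no tile passed. Of the 188 tiles with at least 20 reads in each pool, the lowest relative to WT heads was that at 969 kb (14 CpGs), the last of the window. It had 13 methylated of 26 reads in KO heads, 37 of 41 in WT heads and 20 of 22 in KO epiblasts, a difference of -40.2 points between the heads (adjusted p 0.0757, Fisher's exact test). The tile at 390 kb (14 CpGs) had 13 of 27 in KO heads and 28 of 32 in WT heads, -39.4 points (adjusted p 0.155, same exact test). The next 3, at 72, 949 and 963 kb, differed from WT heads by -23.8, -22.4 and -21.8 points, with adjusted p-values of 0.445, 0.311 and 0.511 by the exact test.

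Among blocks, the one at 546 kb (chr18:37596000-37597999, 61 CpGs) had 82.2% in KO heads (174 reads), 55.0% in WT heads (149 reads) and 75.9% in KO epiblasts (54 reads), 27.2 points between the heads (17.1 to 36.6). The block at 120 kb (chr18:37170000-37172999, 126 CpGs) had 62.7%, 40.9% and 61.2% in the same order, so that WT heads were the low pool. The block at 83 kb (chr18:37133000-37135999, 129 CpGs) had 71.9%, 53.0% and 39.4%. The blocks at 778 and 411 kb were 18.2 and 18.01 points higher in KO heads. The block furthest below WT heads, at 583 kb, had 63.2% in KO heads and 70.8% in WT heads, a difference whose interval runs from -17.7 to 2.76 points.

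**Figure D4:**
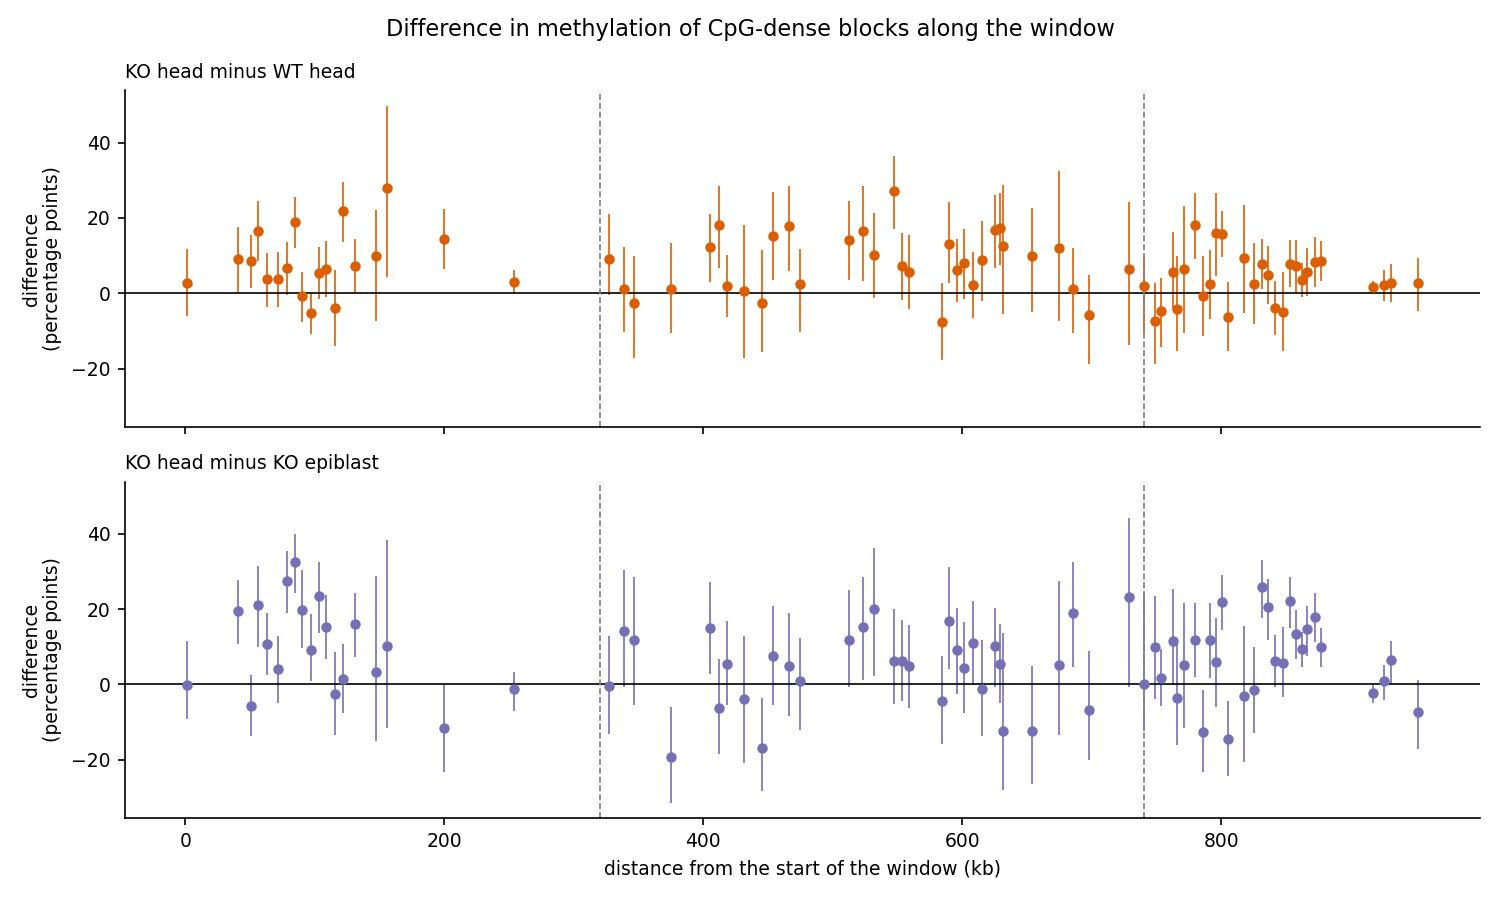
Difference in CpG methylation (percentage points) of the 79 dense blocks against distance from the start of the window (kb), for KO head minus WT head (top) and KO head minus KO epiblast (bottom), with Newcombe 95% intervals and dashed lines at 320 and 740 kb. In the top panel 65 of 79 blocks lie above 0 and in the bottom panel 56, with 22 below 0 and 1 at 0.

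Cell type markers also differed between the head groups, in RNA from other samples than the methylation pools. In the merged FPKM columns all 8 neural head markers (Sox1, Pax6, Otx2, Six3, Rax, Lhx2, Hesx1 and En1) were lower in KO heads, with a summed level of 143 FPKM in KO heads and 207 in WT heads, and 5 of 6 epiblast markers (Pou5f1, Nanog, Fgf5, Otx2, Dnmt3b and Utf1) were higher, summing to 193 in KO heads and 151 in WT heads; Otx2 stands in both lists. Dnmt3b, also a regulator of the locus, had 93.4 FPKM in KO heads and 55.2 in WT heads. Without it the sums were 99.5 and 95.7, but Otx2, the 1 marker that was lower, made up most of these, with 62.8 and 87.4. Pou5f1 had 16.9 FPKM in KO heads and 3.91 in WT heads. In the same order Nanog had 8.27 and 1.59, Fgf5 6.94 and 1.70, and Utf1 4.58 and 1.14. The 3 blood markers summed to 4.88 in KO heads and 97.7 in WT heads, the 3 heart markers to 74.2 and 60.5, and the 4 neuronal markers to 51.9 and 74.6 in the same order. Extraembryonic markers were at or near 0, summing to 0.264 and 0.625, with Afp at 0 in both. Merged columns hide the spread between libraries. In the Tet1/2 set blood markers summed to 376 and 4.45 in DKO heads and 0.215 and 0 in WT heads. Heart markers summed to 5.74 and 2.66 in those DKO heads and 19.9 and 151 in those WT heads. In dense tiles of the window KO epiblasts were at 38.97%, below either head pool. The part of cell composition in the methylation difference was not tested. The size of the difference depended on which reads were counted. It was 3.24 points as a mean of tile levels. Over CpGs with at least 5 reads in every pool it was 9.05, from 16 tiles only and with an interval of 1.29 to 16.6.

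The comparison of KO heads with KO epiblasts follows the locus across stage and tissue without Kmt2b; it shares the KO head pool with the genotype comparison, so the 2 are not independent. Here too the dense tiles held more methylation in KO heads. The 313 tiles had 51.7% in KO heads and 43.9% in KO epiblasts, 7.84 points apart (6.73 to 8.95), with 193 higher, 117 lower and 3 equal. Dense tiles had 49.1% in KO heads and 38.97% in KO epiblasts, 10.1 points apart (8.86 to 11.3), with 116 of 164 higher. Tiles with fewer CpGs differed by 3.67 points (1.32 to 6.02).

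Over summed reads, dense tiles elsewhere differed in the opposite direction. They had 39.7% in KO heads and 45.03% in KO epiblasts, a difference of -5.32 points, although their median tile difference was 0.43 points and 51.7% of them were higher in KO heads. By summed reads the window's difference was 15.4 points larger (14.2 to 16.7). However, the -5.32 points elsewhere lie below the difference in either density class there. That sum therefore also depends on how each pool's reads were shared between the classes, and 15.4 is not a difference at equal density. Within classes the window's difference was 10.3 points larger at 20 to 39 CpGs and 14.7 points larger at 40 or more. As a median over dense tiles it was 8.72 points in the window, against 0.43 elsewhere. In tiles of 40 or more CpGs the window differed by 10.8 points (9.02 to 12.5) and the rest of the genome by -3.93. In tiles of 20 to 39 CpGs the window differed by 10.7 points and the rest by 0.37. At 5 to 9 CpGs the window differed by -5.20 points (-11.0 to 0.70) and the rest by 3.29.

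The difference was uneven along the locus. Dense tiles were higher in KO heads by 9.61 points in the first segment (7.28 to 11.9; 56.9% in KO heads and 47.3% in KO epiblasts), 5.64 in the middle (3.18 to 8.11; 66.5% and 60.9%) and 10.1 in the last (8.43 to 11.7; 33.5% and 23.4%). Sparser tiles went the other way in the first segment alone, with 60.6% in KO heads, 63.5% in WT heads and 68.8% in KO epiblasts, -8.19 points between KO heads and KO epiblasts (-12.9 to -3.39; 36 tiles). In the 97 kb windows the difference ran from -15.2 to 13.8 points. The lowest was the stretch from 194 to 291 kb, with 27.6% in KO heads and 42.8% in KO epiblasts over 17 tiles, and WT heads were at 23.1% there. The highest was the stretch from 0 to 97 kb, with 64.0% in KO heads and 50.2% in KO epiblasts over 33 tiles, and WT heads were at 56.5%.

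By tile, 61 were at least 20 points higher in KO heads (19.5%, against 14.8% of all tiles) and 21 were lower (6.71%, against 8.63%). The exact test called 23 higher (7.35%, against 1.56%) and 2 lower (0.639%, against 1.15%), and at an unadjusted p under 0.05 there were 68 higher (21.7%, against 8.73%) and 14 lower (4.47%, against 5.13%). Among the 164 dense tiles the adjusted test called 17 higher (10.4%, against 2.98% of dense tiles elsewhere) and 1 lower (0.61%, against 4.44%). By block, 9 of 79 were at least 20 points higher (11.4%, against 8.37% of all blocks) and 0 lower (4.21% of all blocks).

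Leading the blocks was the one at 83 kb, with 71.9% in KO heads (366 reads) and 39.4% in KO epiblasts (221 reads), 32.5 points (24.3 to 40.1, adjusted p 3.27e-12, Fisher's exact test). Its neighbour at 77 kb had 70.9% in KO heads and 43.4% in KO epiblasts, and WT heads, at 64.2%, were nearer to KO heads. The block at 830 kb (chr18:37880000-37882999, 124 CpGs) had 53.6% in KO heads, 45.9% in WT heads and 27.9% in KO epiblasts. The blocks at 102 and 728 kb were 23.4 and 23.3 points above KO epiblasts, and the interval at 728 kb includes 0 (-0.76 to 44.2).

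Of tiles, the one at 464 kb (chr18:37514000-37514999, 19 CpGs) had 18 methylated of 30 reads in KO heads, 7 of 22 in WT heads and 0 of 20 in KO epiblasts, 60.0 points between KO heads and KO epiblasts (36.1 to 75.4, adjusted p 0.00128, exact test). The tile at 776 kb had 19 of 20 in KO heads and 7 of 20 in KO epiblasts, also 60.0 points (adjusted p 0.0106, exact test). The tile at 852 kb (35 CpGs), in the low stretch of the last segment, had 25 of 52 in KO heads, 11 of 53 in WT heads and 4 of 44 in KO epiblasts. The tiles at 376 and 601 kb were 41.3 and 39.3 points above KO epiblasts (adjusted p 0.0854 and 0.0122, exact test).

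Among tiles with at least 20 reads in each pool, the lowest relative to KO epiblasts were at 969, 200, 282, 584 and 72 kb, with differences of -40.9, -34.9, -33.3, -25.4 and -22.6 points. The tile at 282 kb (16 CpGs) had 0 methylated of 31 reads in KO heads, 5 of 56 in WT heads and 7 of 21 in KO epiblasts (adjusted p 0.0377 for KO heads against KO epiblasts, exact test), and that at 584 kb had 47 of 63 in KO heads, 47 of 62 in WT heads and 41 of 41 in KO epiblasts (adjusted p 0.0122, same exact test). The other 3 did not pass. Among blocks, that at 374 kb had 29.5% in KO heads, 28.3% in WT heads and 48.7% in KO epiblasts, a difference of -19.3 points between KO heads and KO epiblasts (-31.4 to -6.08). The next 4, at 445, 804, 784 and 653 kb, differed from KO epiblasts by -16.8, -14.5, -12.5 and -12.4 points.

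Pools ranked tiles alike. Over the 164 dense tiles the levels of KO heads and WT heads had r = 0.912 and rho = 0.909, those of KO heads and KO epiblasts r = 0.879 and rho = 0.879, and those of WT heads and KO epiblasts r = 0.864 and rho = 0.861. Tiles share CpG content and libraries, so these describe the tiles and are given with no p-value.

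Wbp7, the older symbol of Kmt2b and the gene targeted, had 0.133 FPKM in KO heads and 0.600 in WT heads, and 0.308 in KO epiblasts and 0.701 in WT epiblasts; whole-gene FPKM does not show which exons are missing. Tet1 had 1.28 and 1.29 FPKM in Tet1/2 DKO heads and 2.55 and 3.33 in WT heads, and 3.82 and 2.92 in DKO epiblasts and 4.77, 6.29 and 5.02 in WT epiblasts. Tet1 was thus lower in the few DKO libraries of either tissue. In heads the difference did not pass (adjusted p 0.113, limma), and the call in epiblasts was lost in 4 of 5 fits with 1 library left out. Tet2 had 0.251 and 0.383 FPKM in DKO heads and 0.430 and 0.488 in WT heads. In epiblasts, where the groups overlapped, it had 0.180 and 0.266 in DKO libraries and 0.254, 0.302 and 0.498 in WT libraries. Tet2 was too low to enter the fit.

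The clustered genes were almost silent at these stages. Of 59 clustered protocadherin genes listed in the RNA tables, 55 were under 1 FPKM in each of the 14 columns used and 32 under 0.1; these columns include a merged WT head at E9.5 (3 samples) that enters no comparison. No Pcdha gene passed 0.246 FPKM and no Pcdhb gene 0.201, and 257 of 308 Pcdhb values were listed at 0. Summed over the 22 Pcdhg genes, the level was 5.65 FPKM in the merged Kmt2b KO heads and 6.70 in the merged WT heads, and 2.71 in Kmt2b KO epiblasts and 3.24 in WT epiblasts. In the Tet1/2 set the sums were 8.58 and 7.75 in DKO heads and 6.09 and 6.05 in WT heads. They were 6.29 and 11.3 in DKO epiblasts, the latter mostly Pcdhgb4 (9.67), and 4.70, 3.43 and 3.30 in WT epiblasts. Every DKO sum was above every WT sum of its tissue, but the libraries are few and no test was run on these sums. Reads of the constant exons belong to every Pcdha or Pcdhg transcript, so the split of RNA among the genes of a cluster is uncertain. In whole heads, fewer cells of a type and less RNA per cell cannot be told apart.

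Pcdhgc3, a gamma gene of the C type that most neural cells use rather than choosing at random, had the highest FPKM of the clustered genes in each E8.5 head column. It had 1.01 FPKM in merged Kmt2b KO heads and 1.96 in merged WT heads, a difference of -0.56 on the log2(FPKM + 1) scale with no replicate check, and 0.323 in Kmt2b KO epiblasts and 0.396 in WT epiblasts, a difference of -0.08. In the Tet1/2 set it had 2.71 and 2.57 FPKM in the DKO heads and 2.10 and 2.19 in the WT heads. Both DKO libraries were above both WT libraries, yet the difference of 0.21 (SE 0.24, log2(FPKM + 1) scale) did not pass (adjusted p 0.729, limma). In epiblasts it had 0.863 and 0.627 FPKM in DKO libraries and 0.513, 0.0141 and 0.625 in WT libraries, 0.36 apart (SE 0.22, same scale; adjusted p 0.230, limma). The difference between those effects, head minus epiblast, was -0.15 (SE 0.33, adjusted p 0.752, limma).

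**Figure D5:**
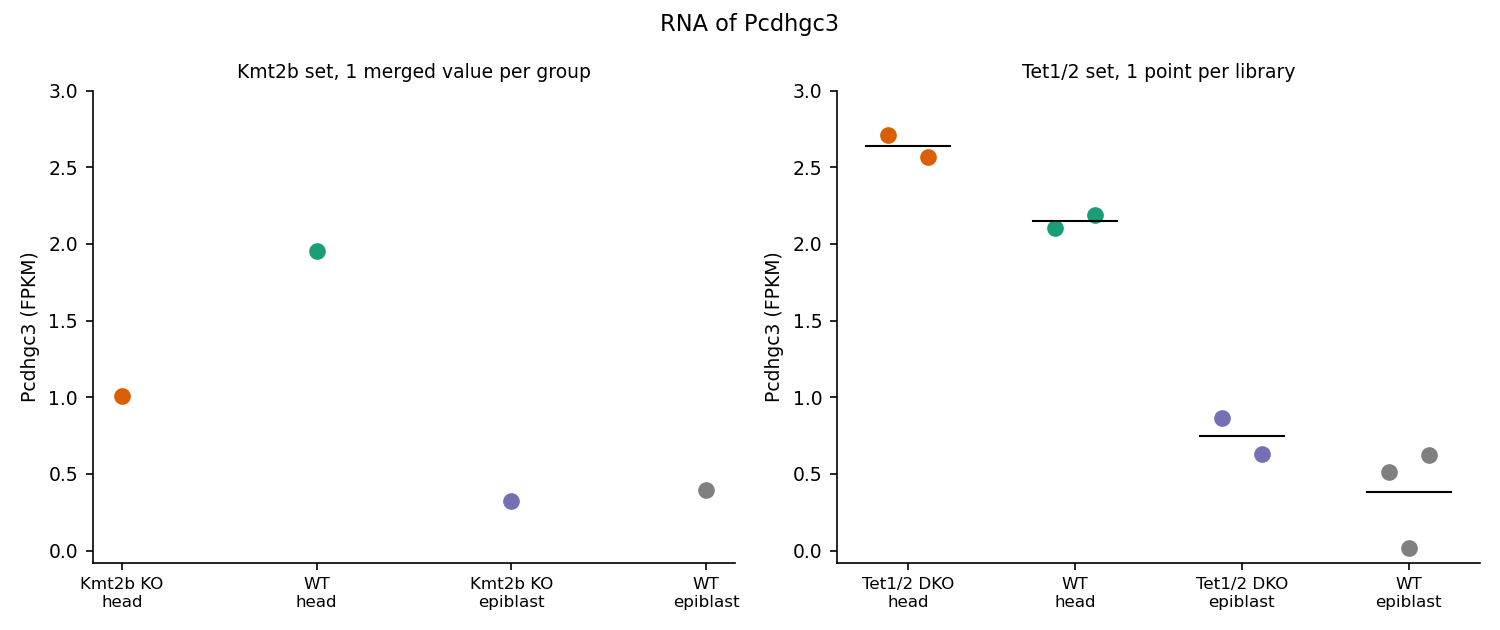
RNA level of Pcdhgc3 (FPKM) by group, for the Kmt2b set with 1 merged value per group (left) and the Tet1/2 set with 1 point per library and the mean as a line (right). E8.5 heads lie above epiblasts in either set; Kmt2b KO heads are at 1.01 and their WT heads at 1.96, and the Tet1/2 DKO heads at 2.57 and 2.71.

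The other 3 genes reached 1 FPKM in epiblast libraries alone, Pcdhga12 in 2 and Pcdhgb4 and Pcdhga2 in 1 each. Pcdhga12, the last gene of the gamma A type, had 0.821 and 0.671 FPKM in DKO heads and 0.526 and 0.573 in WT heads (difference 0.17, SE 0.38, adjusted p 0.881, limma). In epiblasts it had 1.30 and 0.0486 in DKO libraries and 1.16, 0.357 and 0.215 in WT libraries (difference 0.02, SE 0.35, adjusted p 0.965, limma). Pcdhgb4 reached 9.67 FPKM in 1 DKO epiblast and 0.0215 in the other, with 0.312, 0.405 and 0.0494 in WT epiblasts. Pcdhga2 reached 1.06 in 1 WT epiblast, with 0.295 and 0.0490 in the other WT epiblasts, and 0.383 and 0.0517 in DKO epiblasts.

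Of the 59 clustered genes only Pcdhgc3 and Pcdhga12 passed the filter of 1 FPKM in 2 columns, and limma called 0 of these in DKO heads, where it called 0.675% of 11265 genes higher and 0.746% lower, and 0 in DKO epiblasts, where it called 20.1% higher and 15.2% lower. Their unadjusted p-values also missed 0.05 in each comparison. In the Kmt2b set no clustered gene differed by 1 or more on the log2(FPKM + 1) scale between KO and WT at E6.5 or E8.5. Of 22563 listed genes 0.616% were that much higher and 0.363% lower at E6.5, and 1.13% and 1.27% at E8.5. A gene under 1 FPKM in both columns cannot differ by 1 on this scale. Every clustered gene was under 1 FPKM in the merged columns at E6.5, and all but Pcdhgc3 at E8.5, so these counts cannot show whether they changed. Differences of the clustered genes in heads had a median of 0 and ran from -0.56 to 0.12.

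Regulators of the locus ranged widely in level. Dnmt3b, which methylates DNA that was unmethylated before, had, besides the head values above, 726 FPKM in merged Kmt2b KO epiblasts and 614 in WT epiblasts. Ctcf, the architectural factor bound at protocadherin promoters, had 25.1 FPKM in KO heads and 22.1 in WT heads, and Smchd1, a chromatin protein needed to keep the clusters silent, had 15.2 and 16.1. Of 13 regulators, 11 entered the fit of the Tet1/2 set. Limma called 0 of these in DKO heads, where it called 0.675% of all 11265 genes higher and 0.746% lower. At an unadjusted p under 0.05 there were 4 of the 11, and the share of all genes at that threshold was not counted.

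In DKO epiblasts 6 regulators were higher and 1 was lower (limma, adjusted p under 0.05), of the 11 in the fit, beside the 20.1% and 15.2% of all 11265 genes called in these directions. The WT epiblasts were taken from the Kmt2b set, so genotype and sample set cannot be told apart in these calls. Higher were Wiz, a zinc-finger partner of chromatin loops (difference 1.16, adjusted p 0.00161), Dnmt3b (0.94, adjusted p 0.00552; its values are tied at 1196 FPKM in both DKO and 624 in all 3 WT epiblasts, as equal ranks are after the authors' scaling), Dnmt1, the maintenance methyltransferase (0.87, adjusted p 0.0038), Dnmt3a (0.72), Ctcf (0.52) and Setdb1, a histone H3 lysine 9 methyltransferase (0.48), all on the log2(FPKM + 1) scale. These 6 calls held with any 1 epiblast library left out. For Dnmt3b the tied values fixed the difference in advance, and every such fit kept WT epiblasts of the Kmt2b set. The lower one was Tet1 (adjusted p 0.0485), a call lost in 4 of 5 fits with 1 library left out. Of the non-clustered protocadherins, 4 of 12 listed entered the fit and 0 were called in either tissue. In each tissue 1 had an unadjusted p under 0.05 (limma), a threshold at which the share of all genes was not counted.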

How the data were processed

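The methylation files deposited by the authors hold whole-number counts of methylated and unmethylated reads per CpG and strand, with no header, and pool a group's samples per the labels. Libraries were made by STEM-seq, a bisulfite method, which reads hydroxymethylated cytosine as methylated. Trim Galore and BS-Seeker2 and the build mm9 are named in the submitters' processing notes. Reads carry no molecular identifiers, so Wilson and Newcombe 95% intervals cover counting error only. Positions are those of the files. Reads of both strands were summed per 1 kb tile, with a minimum of 10 per pool. Fisher's exact test was two-sided and was checked on simulated data.

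RNA values are the authors' FPKM, with TopHat2 (2.0.11) and Cufflinks (2.0.2) in the same notes; depth is unknown. The E6.5 and E8.5 columns of each deposited table hold nearly the same sorted values, as quantile normalization leaves them, so FPKM show ranks rather than total RNA, and the 2 tables were scaled apart. The Kmt2b table has 1 merged column per group, so it gives differences with no test. Another 3 columns, of samples not listed or unclear, were not used. The Tet1/2 table (2 DKO heads, 2 WT heads, 2 DKO epiblasts and 3 WT epiblasts, taken as the WT epiblasts of the Kmt2b set) was fitted in 1 model with limma 3.58.1 in R 4.3.3 on log2(FPKM + 1), for genes at 1 FPKM or more in at least 2 columns. This understates differences of low genes. Nothing says that samples came from separate litters, so p-values measure the spread between these samples.

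Members and lists were chosen with earlier results of these data known. Named were the 5 tiles and 5 blocks with the largest differences in each direction (with 20 or more reads in each pool; 188 tiles qualified), clustered genes at 1 FPKM in any column, and listed regulators. The segment limits came from general knowledge of the gene order, and RefSeq names for another build were only counted. No sequence is printed.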

Additional observations from a re-analysis of the deposited data

How the results depend on the processing

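Of 138 values under other settings, 93 stayed within the limits set for a change and 45 moved. The only sign change was in tiles of 10 to 19 CpGs, where KO heads minus WT heads was -0.74 points and became 0.24 with a minimum of 5 reads and 2.53 with 20. The cause was not tested for any of these.

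For KO heads minus WT heads, the whole-locus difference of 4.22 points became 5.78 with at least 20 reads per tile and 3.24 as a mean of tile levels. It became 9.05 over CpGs with 5 reads in every pool (16 tiles, 1.29 to 16.6). With 20 reads the first segment gave 8.45. Tiles shifted by 500 bases gave -10.8 at 5 to 9 CpGs, 3.75 at 20 to 39 and 7.59 at 40 or more. The share of tiles at least 20 points higher was 30.7% at 10 points, 3.19% at 30 points and 6.57% in 2000-base tiles; the share lower was 14.4% at 10 points, 2.24% at 30, 11.04% with 5 reads and 2.66% with 20. The share called higher by the exact test was 1.20% in 500-base tiles, 1.27% with 5 reads and 3.19% with 20; the share called lower was 0.333% in shifted tiles and 0.532% with 20 reads. In blocks opened at 30 CpGs 7.25% were higher.

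For KO heads minus KO epiblasts, 7.84 points became 9.37 with 20 reads, 8.99 on strand 1, 10.2 over CpGs with 5 reads (16 tiles, 2.00 to 18.1) and 6.09 as a mean of tiles. The first segment gave 9.51 with 20 reads. Shifted tiles gave 2.20 at 10 to 19 CpGs and 8.43 at 20 to 39. The share higher was 40.6% at 10 points and 8.63% at 30; the share lower was 17.3% at 10 points, 2.88% at 30, 11.3% with 5 reads and 3.19% with 20. The exact test called 4.25% higher with 5 reads and 12.8% with 20, and called lower 1.20% in 500-base tiles, 1.0% in shifted tiles, 0.212% with 5 reads and 1.60% with 20. In blocks opened at 30 CpGs 1.45% were lower.

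Pcdhgc3 in merged Kmt2b KO heads minus WT heads was -0.89 with a pseudocount of 0.1 and -0.21 with 5, and in epiblasts -0.23 with 0.1 and -0.020 with 5. In the Tet1/2 set 0 clustered genes were called under any setting, the lowest and highest counts being 0 and 0 with 1 library left out. Replicate numbers of the heads give no pairing (r = 0.059 between same-numbered deviations), and a replicate block left Pcdhgc3 at 0.21 (adjusted p 0.779, limma) with 0 calls. Epiblast columns could be matched to WT samples as a group only; by the numbers in the column headers, same-numbered deviations had r of 0.102 and 0.0341, and a replicate block on them, added after the data were seen, gave Pcdhgc3 0.49 (adjusted p 0.0636, limma) with 0 calls. Depth limits single tiles.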
